A study of Mus musculus with 21 samples.

Results

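The libraries labelled TWIST1-TCF3 dimer were compared with those labelled TWIST1-TCF4 dimer, which asks how far the E-protein joined to TWIST1 changes the response of differentiating mouse embryonic stem cells. The 6 libraries, 3 of each kind, were taken by their sample titles from 21 in 7 groups, and 13812 genes were tested between them. Both sets are A2loxCre embryonic stem cells (C57BL/6 per the labels) with an integrated sequence coding for a Twist1-Tcf3 or a Twist1-Tcf4 dimer, which doxycycline turns on. Both were grown as embryoid bodies, floating aggregates in which the cells leave the stem cell state, and both were collected on day 3 with doxycycline for the last 16 h. The levels of 2 further groups are set beside them: the parental A2loxCre line, also given doxycycline, and a line with an integrated Twist1 monomer and no doxycycline. The remaining groups, all with doxycycline, carried the monomer, a Twist1 homodimer or a Twist1-Tcf12 dimer. Their levels are given at a few points only. In each of the lines the labels name 1 integrated construct and do not say how many clones it stands for, nor whether samples 1 to 3 of a group were separate cultures, so p-values measure the spread between these samples, which may be technical. Each library is a whole aggregate, so that fewer cells of a type and less RNA per cell cannot be told apart.

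TWIST1 is a basic helix-loop-helix factor of mesoderm, neural crest and the change of epithelium into mesenchyme. It binds E-boxes, short DNA words of the form CANNTG, as a pair with itself or with an E-protein, and the E-proteins TCF3, TCF4 (which is not the Wnt effector TCF7L2) and TCF12 are broadly expressed relatives that also pair with cell type-specific members of the family. The ID proteins bind E-proteins but not DNA and so take them out of such pairs. An embryoid body of this age holds epiblast-like cells that lose naive pluripotency, and an outer layer of primitive and visceral endoderm, which takes up nutrients and lays down a basement membrane.

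The 6 libraries held 11101696 to 15999693 counts and 19903 to 20883 detected genes. Between libraries of 1 group, chi-square per degree of freedom lay between 1.69 and 3.80, more than sampling noise gives, and the biological coefficient of variation of the 6 was 0.0446. Mitochondrial transcripts took 1.86% to 2.38% of counts in both sets. In the other groups, sample 1 labelled TCF12 dimer (85.9 to 105 per degree of freedom against samples 2 and 3) and sample 1 of the uninduced monomer line (35.5 to 39.7) stood apart. Neither entered the comparison, but both count in the means and list medians given for their groups. Levels below are counts scaled to library size (CPM) and corrected by TMM factors, in the order of samples 1 to 3, and means of 3 for the parental and uninduced monomer lines. Log2 fold changes are those of the libraries labelled TCF3 minus the TCF4 dimer libraries, with standard errors and adjusted p from edgeR.

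The construct genes check the labels. Tcf4 stood at 55.9, 48.0 and 52.5 CPM in the libraries labelled TCF3 and at 349, 337 and 305 CPM in the TCF4 dimer libraries, where the parental line had 47.5 CPM (log2 fold change -2.66 ± 0.06, adjusted p 5.0e-20). Tcf3 stood at 151, 152 and 159 CPM in the libraries labelled TCF3, below the 175, 175 and 183 CPM of the TCF4 dimer libraries (-0.21 ± 0.05, adjusted p 8.6e-04) with a mean of 167 CPM in the parental line. Tcf3 counts thus give no sign of the construct that the label names, which is why these libraries are called by their label.

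Twist1 was present in both sets. It stood at 56.6, 52.3 and 56.5 CPM in the libraries labelled TCF3 and at 41.8, 40.4 and 36.1 CPM in the TCF4 dimer libraries, against a parental 8.11 CPM (0.49 ± 0.07, adjusted p 1.9e-06). The sets did not overlap, and both lay below the 613 CPM of the induced monomer line and the 182 CPM of the homodimer line. Tcf12, the remaining E-protein, was at 120, 91.3 and 102 CPM against 93.7, 92.5 and 85.0 CPM, which overlap (0.21 ± 0.08, adjusted p 0.059; 0.30 and 0.001 without sample 2 labelled TCF3). In the parental line Tcf12 was at 62.9 to 68.9 CPM, below both sets, and in the libraries labelled TCF12 dimer at 53.2, 118 and 108 CPM. Hprt, the purine salvage gene in whose locus the A2loxCre cassette sits, was at 9.92, 8.12 and 9.68 CPM against 32.6, 32.0 and 25.7 CPM (-1.69 ± 0.11, adjusted p 1.1e-11). Its parental level was 82.8 CPM and its level in the uninduced monomer line 3.81 CPM, so that every integrated line read lower than the parental one.

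**Figure D1:**
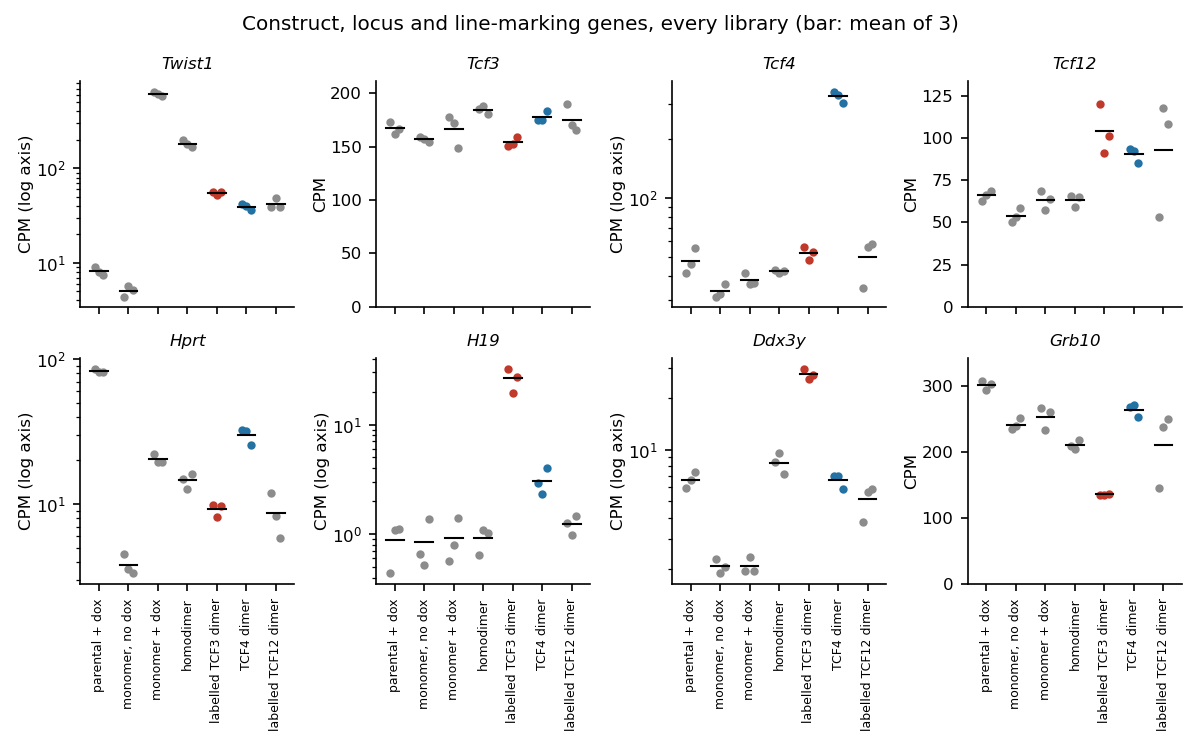
Levels (CPM; log axes for Twist1, Tcf4, Hprt, H19 and Ddx3y, linear axes from 0 for Tcf3, Tcf12 and Grb10) in every library of the 7 groups, with the mean of each group as a bar, in red for the libraries labelled TCF3 dimer and blue for the TCF4 dimer. Tcf4 is high in the 3 blue libraries (305 to 349 CPM), whereas Tcf3 in the red libraries (151 to 159 CPM) lies below the blue ones.

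The libraries labelled TCF3 and the TCF4 dimer libraries differed in 5694 of the 13812 genes tested (41.2%), with 2991 genes higher (21.7%) and 2703 lower (19.6%) in those labelled TCF3 (edgeR, adjusted p under 0.05). Most differences were small: the median size among genes that passed was 0.37 on the log2 scale, and the median of all tested genes was -0.0019. At 2-fold or more, 677 genes passed (4.9%), of which 543 were higher (3.93%) and 134 lower (0.97%). The 3 libraries of one set lay wholly above or below those of the other in 50.4% of the tested genes, 25.8% higher and 24.6% lower. Against the parental line, in a fit of 9 samples, 6731 of 14051 genes passed in the libraries labelled TCF3 (47.9%) and 4169 in the TCF4 dimer libraries (29.7%). Both of those comparisons use the same parental samples, so their values are set side by side only. Of the 13812 tested genes, 722 were over the minimum of the filter on low counts in all 3 libraries of 1 set only and so passed it through the set where they are high. With such members left out, the counts of the lists below were 19 of 23 higher in the endoderm list, 19 of 24 in basement membrane, 17 of 19 in naive pluripotency, 21 of 29 in mesenchyme, 12 of 14 in the blood and endothelium list, 10 of 18 in the BMP list, 9 of 14 in the Wnt list and 5 of 25 in the imprinted list. In the epithelial list 15 of 23 were then lower. In the primitive streak list 2 of 11 were then higher and 1 lower, in the FGF list 11 and 4 of 19, and in the trophoblast list 4 and 1 of 8. The Notch list then had 2 higher and 2 lower of 12, and the DNA methylation list 2 and 4 of 12. Cardiac and Hox genes are treated in this way below. Some genes stand in several lists, so the counts of the lists are not independent. Each count is to be read against the 21.7% higher and 19.6% lower over all tested genes.

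The 12 largest rises, among genes whose sets did not overlap and whose mean in the higher set was at least 5 CPM, ran from 3.42 to 2.64 on the log2 scale, and 4 of the 12, with Sox7, Foxq1 and Cubn among them, belong to the endoderm list described below. Tcf23, a helix-loop-helix gene, stood at 9.26, 12.8 and 9.76 CPM in the libraries labelled TCF3 and at 1.18, 1.20 and 0.67 CPM in the TCF4 dimer libraries (3.42 ± 0.21, adjusted p 5.8e-12). The imprinted RNA H19 followed at 3.05, Nostrin, an adaptor of nitric oxide synthase traffic, at 3.04 and the endoderm factor Sox7 at 2.99. Then came Tfec, a relative of MITF, at 2.92, the proteoglycan Srgn at 2.89 and the forkhead gene Foxq1 at 2.87. Ihh, a hedgehog ligand made by visceral endoderm, Notum, an enzyme that inactivates Wnt ligands, Klb, a co-receptor for endocrine FGFs, and Cubn, an uptake receptor, closed the 12 at 2.83, 2.75, 2.72 and 2.64. Of these 12 genes, 10 were below their parental level in the TCF4 dimer libraries, and 2, H19 and Notum, were above it in both sets.

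The differences in the other direction were smaller. After Tcf4 itself came Myl9, a smooth muscle myosin light chain, at 1.98, 2.83 and 1.71 CPM against 7.86, 6.76 and 6.87 CPM in the TCF4 dimer libraries (-1.73 ± 0.19, adjusted p 7.4e-08). Klhl14 followed at 4.13, 2.47 and 3.50 CPM against 10.5, 10.6 and 11.6 CPM (-1.69), with 4.34 CPM in the parental line. Hprt, as given above, was next. The translation factor gene Eef1a2 (-1.62), the potassium channel gene Kcnq3 (-1.53), the zinc finger gene Zfp467 (-1.52), the long RNA Miat (-1.41) and the sialyltransferase gene St6gal2 (-1.37) also belonged to the 12, with 3 predicted or RIKEN genes. Zfp467, for one, stood at 4.55, 3.97 and 5.37 CPM against 12.6, 13.3 and 14.1 CPM.

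**Figure D2:**
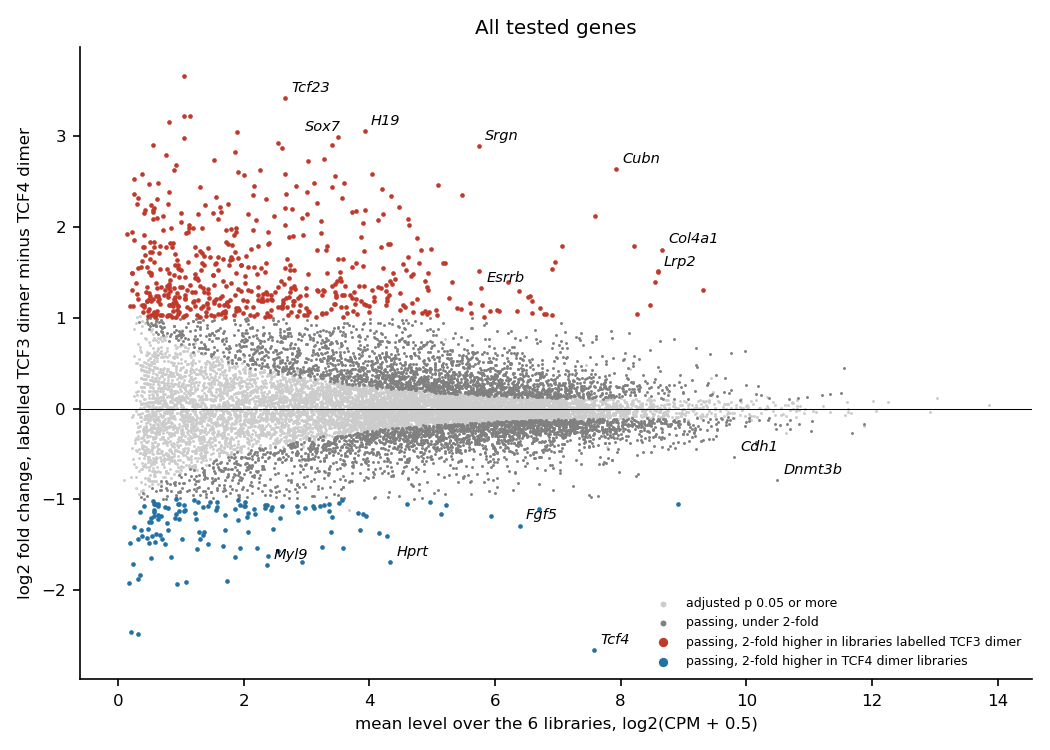
Log2 fold change of every tested gene (vertical axis, libraries labelled TCF3 dimer minus TCF4 dimer) against its mean level over the 6 libraries (horizontal axis, log2 of CPM + 0.5), with genes past the test and 2-fold coloured. The 543 red points reach further from 0 than the 134 blue ones, of which Tcf4 at -2.66 is the farthest.

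The sequence before the start of 4 such genes shows E-box words that lie there. Windows of 250 bases before the start were taken from RefSeq (GRCm38.p6), and 388 of the 543 genes that were 2-fold higher and 82 of the 134 that were 2-fold lower had one. Capitals mark CATATG and CAGATG, the latter also as CATCTG, its spelling on the other strand. The genes were chosen after their values were seen: Col3a1, Amn and Kdr, higher in the libraries labelled TCF3 and described below, and Zfp467, lower there. All 4 windows hold CAGATG or CATCTG, which stood in only 13.2% of windows of genes 2-fold higher and 10% of those 2-fold lower. They are examples of the words and not typical of the changed genes. Each is read along its own strand, at chr1:45311288-45311537 (plus), chr12:111270846-111271095 (plus), chr5:75978456-75978705 (minus) and chr6:48445091-48445340 (minus) in that order.
Col3a1: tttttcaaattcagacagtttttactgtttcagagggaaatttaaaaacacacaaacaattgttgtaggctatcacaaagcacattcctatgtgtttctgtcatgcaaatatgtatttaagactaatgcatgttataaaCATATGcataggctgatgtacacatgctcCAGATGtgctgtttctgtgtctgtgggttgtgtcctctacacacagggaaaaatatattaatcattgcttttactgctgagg
Amn: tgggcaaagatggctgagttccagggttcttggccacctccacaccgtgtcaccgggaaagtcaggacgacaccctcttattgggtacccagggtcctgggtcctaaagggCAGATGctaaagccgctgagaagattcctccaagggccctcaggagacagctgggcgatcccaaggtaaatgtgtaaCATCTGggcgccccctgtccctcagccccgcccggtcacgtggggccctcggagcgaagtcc
Kdr: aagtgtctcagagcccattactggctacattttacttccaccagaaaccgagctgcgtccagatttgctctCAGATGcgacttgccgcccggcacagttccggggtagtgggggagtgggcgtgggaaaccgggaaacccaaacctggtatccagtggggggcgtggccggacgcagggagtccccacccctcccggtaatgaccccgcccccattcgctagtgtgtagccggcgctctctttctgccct
Zfp467: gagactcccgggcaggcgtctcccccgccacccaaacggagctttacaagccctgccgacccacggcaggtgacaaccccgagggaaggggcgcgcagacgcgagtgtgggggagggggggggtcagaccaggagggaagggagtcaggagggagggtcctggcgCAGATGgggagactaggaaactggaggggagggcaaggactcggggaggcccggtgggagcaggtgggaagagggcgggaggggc
The Col3a1 window holds CATATG 111 bases and CAGATG 82 bases before the start, and the Amn window holds CAGATG at 139 and CATCTG at 62 bases. In the Kdr window CAGATG begins 179 bases and in the Zfp467 window 85 bases before the start.

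The share of windows with such words is given without a test, and a gene with several windows counts once for each. On either strand, CATATG stood in 1.8% of the windows of genes 2-fold higher, 1.82% of those 2-fold lower, 1.58% of those of all tested genes and 3.46% of all windows in the table. For CAGATG or CATCTG the shares were 13.2%, 10%, 9.9% and 14.4% in the same order. For CAGCTG they were 17%, 17.3%, 12% and 13%, and for CACCTG or CAGGTG 13.8%, 26.4%, 16.2% and 17.2%. CACGTG stood in 7.2%, 5.45%, 8.4% and 6.02%. No 2 of these words can overlap in a sequence. Windows of risen and fallen genes were thus farthest apart in the share with CACCTG or CAGGTG. A match describes letters in the window and not a bound site.

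Genes of primitive and visceral endoderm were higher in the libraries labelled TCF3. Of a list of 30, 24 were tested, 19 were higher (17 of them 2-fold) and 0 were lower, with a median log2 fold change of 1.84 against -0.0019 over all tested genes (0 lower also at an unadjusted edgeR p under 0.05 and with DESeq2). The transcription factors moved together. Sox7 stood at 17.4, 21.1 and 19.5 CPM against 1.81, 2.40 and 2.92 CPM in the TCF4 dimer libraries (2.99 ± 0.15, adjusted p 8.7e-14). Gata6, which starts the primitive endoderm programme, stood at 23.7, 30.2 and 27.8 CPM against 4.40, 4.45 and 4.74 CPM (2.58 ± 0.12, adjusted p 1.9e-14). The sets overlapped in neither gene. Sox17, a factor downstream of Gata6, differed by 2.45, Gata4 by 1.88, Hnf4a, the master factor of visceral endoderm, by 1.89 and Foxa2 by 1.81.

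The uptake machinery of visceral endoderm followed the factors. Cubn, the cubilin receptor, stood at 306, 516 and 438 CPM against 66.8, 71.1 and 64.6 CPM (2.64 ± 0.24, adjusted p 0.0015), the spread being widest in the libraries labelled TCF3. Amn, the membrane anchor of cubilin, stood at 32.6, 41.8 and 33.1 CPM against 7.47, 7.44 and 7.97 CPM (2.22 ± 0.11, adjusted p 5.7e-14). Lrp2, the megalin receptor, differed by 1.51 (adjusted p 0.015) and Dab2, the adaptor for both receptors, by 1.79 (adjusted p 1.2e-17). The call of Lrp2 was lost without sample 3 labelled TCF3 (adjusted p 0.0585) and without sample 1, 2 or 3 of the TCF4 dimer (0.0597, 0.0597 and 0.0615). The 5 members that did not pass were secreted carriers of later visceral endoderm and others. Ttr was at 5.21, 5.21 and 3.09 CPM against 2.52, 3.68 and 4.87 CPM (0.25, adjusted p 0.42), and Apob, Rbp4, Cldn6 and Slc39a8 lay between -0.26 and 0.48. Apob passed as higher without sample 1 labelled TCF3 (0.72, adjusted p 5.5e-07) and Cldn6 as lower without sample 2 labelled TCF3 (-0.36, adjusted p 0.002). Afp, at up to 0.57 CPM, was too low to be tested.

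The parental line lay between the sets. The list's median difference from the parental line was 0.74 in the libraries labelled TCF3 and -0.90 in the TCF4 dimer libraries, where all tested genes had medians of 0.02 and 0.01. Gata6, at a parental 12.1 CPM, was higher in the libraries labelled TCF3 (1.16, adjusted p 3.7e-11) and lower in the TCF4 dimer libraries (-1.42, adjusted p 5.0e-10). Sox7 likewise differed from its parental 8.2 CPM by 1.23 and -1.76 (adjusted p 9.6e-10 and 1.6e-09). Foxa2 was below its parental 13.2 CPM in both sets, by -0.84 and -2.65. The uninduced monomer line, which had no doxycycline, stood above the libraries labelled TCF3 in each of Sox7 (32.1 CPM), Gata6 (43.0 CPM) and Cubn (894 CPM), and its list median was 1.64 above the parental line. The level of these genes thus also varied between lines without induction, and the part of line and construct in the difference cannot be told apart.

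**Figure D3:**
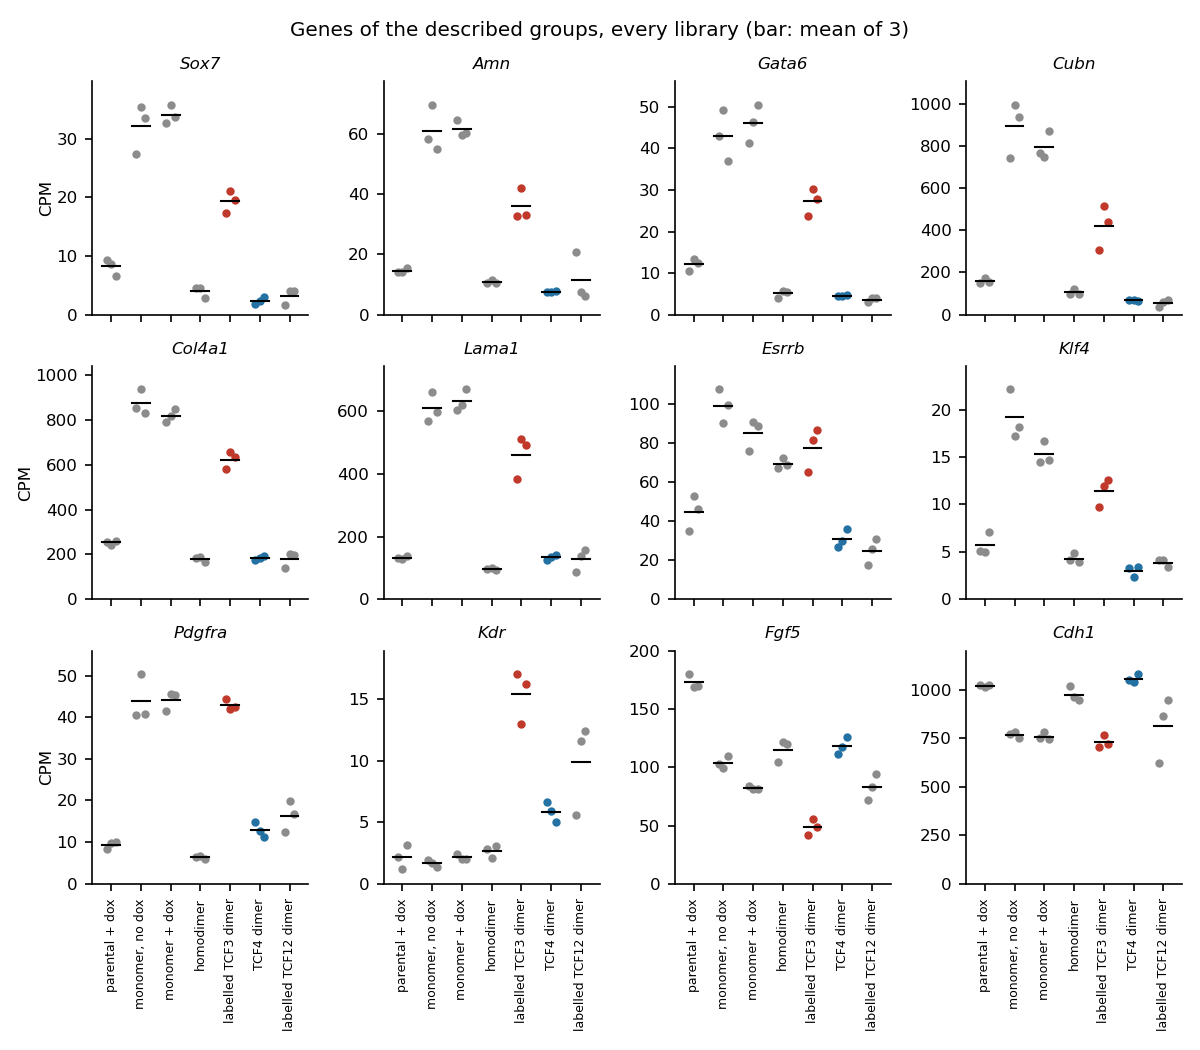
Levels (CPM, linear axes from 0) of 12 genes of the described groups in every library of the 7 groups, with the mean of each group as a bar, in red for the libraries labelled TCF3 dimer and blue for the TCF4 dimer. The red points lie between the monomer lines and the parental line for Sox7, Gata6 and Cubn, and the blue points lie below the parental line.

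Basement membrane genes showed the same direction. Their list also counts Srgn (2.89, its largest rise), Thbd and Plat, which are not structural parts of the membrane. Of 26, 25 were tested, 20 were higher (12 of them 2-fold) and 0 were lower, with a median of 0.86 (1 lower at an unadjusted edgeR p under 0.05, 0 with DESeq2). Col4a1 and Col4a2, the chains of the collagen IV network, differed by 1.75 ± 0.05 and 2.12 ± 0.05 (adjusted p 4.5e-18 and 5.0e-20). Col4a1 stood at 581, 656 and 634 CPM against 177, 184 and 194 CPM, with 253 CPM in the parental and 874 CPM in the uninduced monomer line. The laminin chains Lama1, Lamb1 and Lamc1 differed by 1.78, 1.04 and 1.51, which together form laminin-111 of the early embryo. Lama1 stood at 383, 511 and 491 CPM against 125, 134 and 142 CPM, and the latter were not past the test against the parental 132 CPM (0.01, adjusted p 0.97). Sparc, a collagen-binding protein of parietal endoderm, differed by 1.40 and the linker Nid1 by 1.24. Nid1 was unlike the others in that both sets lay above the parental 21 CPM, at 128 to 134 CPM in the libraries labelled TCF3 and 54.6 to 57.2 CPM in the TCF4 dimer libraries. Lama5, the laminin chain of later epithelia, did not pass (-0.23, adjusted p 0.20), nor did Col4a5, Lama2, Col18a1 and Plod1. Col4a5 passed as lower without sample 1 of the TCF4 dimer (-0.63, adjusted p 0.0285), and Plod1 as higher without sample 3 (0.27, adjusted p 0.0095). Of the 20 members outside chromosomes 8 and 11, described below, 15 were higher.

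Genes of naive pluripotency, the state before implantation, were higher and genes of the formative state after it lower in the libraries labelled TCF3. All 20 naive genes were tested, 18 were higher (13 of them 2-fold) and 1 was lower, with a median of 1.18. Lncenc1, a long RNA of naive cells, stood at 55.2, 55.6 and 59.0 CPM against 10.8, 9.84 and 10.2 CPM (2.46 ± 0.08, adjusted p 1.2e-17). Its parental level was 21.7 CPM and its uninduced monomer level 11.6 CPM, so for this gene the uninduced monomer line lay below the parental line. The list as a whole differed from Lncenc1 in this. Its median difference from the parental line was 0.65 in the libraries labelled TCF3, -0.55 in the TCF4 dimer libraries and 1.17 in the uninduced monomer line. Tbx3 differed by 2.31, Klf4 by 1.91, Tfcp2l1 by 1.37 and Esrrb by 1.32, all of them factors of the naive network. Esrrb stood at 65.0, 81.7 and 86.5 CPM against 26.7, 29.8 and 35.8 CPM (adjusted p 4.3e-04). In the uninduced monomer line Esrrb was at 108, 90.2 and 99.7 CPM. Nanog, the member that was lower, stood at 47.1, 65.3 and 58.4 CPM against 82.0, 90.7 and 101 CPM, and at 210 CPM in the parental line (-0.69 ± 0.13, adjusted p 0.0063). Dppa3, at 1.16 to 1.79 CPM in the 6 libraries, did not pass (0.06, adjusted p 0.88).

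Of the 20 general and formative genes tested, 1 was higher and 11 were lower, with a median of -0.24. Fgf5, the marker ligand of formative epiblast, stood at 41.7, 55.4 and 48.6 CPM against 111, 117 and 126 CPM, and at 173 CPM in the parental line (-1.29 ± 0.08, adjusted p 1.8e-08). Zic2 differed by -0.83, the DNA methyltransferase Dnmt3b by -0.79, Foxd3 by -0.75 and Pou3f1 by -0.50. Pou5f1, the core pluripotency factor, stood at 396, 437 and 426 CPM against 552, 526 and 551 CPM (-0.37 ± 0.04, adjusted p 2.9e-07). Tdgf1, the Nodal co-receptor, was the 1 member that was higher (0.52, adjusted p 8.6e-09). Sox2 (0.10, adjusted p 0.27) and Otx2 (-0.08, adjusted p 0.27) did not pass. Without sample 1 labelled TCF3 both passed (0.17, adjusted p 0.023 and -0.18, adjusted p 0.0043), and 5 members were higher and 11 lower.

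Mesenchymal genes were mostly higher and epithelial junction genes mostly lower in the libraries labelled TCF3. Of 36 mesenchymal genes, 31 were tested, 23 were higher (8 of them 2-fold) and 3 lower, with a median of 0.76. Col3a1, a fibrillar collagen, stood at 27.3, 26.7 and 34.7 CPM against 5.58, 8.30 and 6.45 CPM, and at 4.06 CPM in the parental line (2.14 ± 0.13, adjusted p 2.0e-10). Pdgfra, a receptor of early mesenchyme and of primitive endoderm, stood at 44.3, 42.0 and 42.5 CPM against 14.7, 12.6 and 11.2 CPM (1.75 ± 0.09, adjusted p 6.1e-14), and at 43.9 CPM in the uninduced monomer line. Foxc1 differed by 1.99, Msx2 by 1.74, Col6a1 by 1.57 and Vim by 0.80. The 3 that were lower were the actin-binding gene Tagln (-1.06), Timp3 (-0.36) and Mmp2 (-0.14). Vim lost its call without sample 3 of the TCF4 dimer (adjusted p 0.0585). Mmp2 lost it without sample 2 or 3 labelled TCF3 (0.17 and 0.061) or sample 1 of the TCF4 dimer (0.051).

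The repressors of the epithelial state were above the parental line in both sets. Zeb1 stood at 14.5, 10.1 and 11.6 CPM against 5.82, 5.47 and 3.65 CPM, and at 1.33 CPM in the parental line (1.30 ± 0.17, adjusted p 1.7e-06). Snai2 stood at 10.7, 5.38 and 6.91 CPM against 2.91, 3.08 and 3.10 CPM, and at 0.18 CPM in the parental line, below the level of 3 counts in a library (1.34 ± 0.22, adjusted p 7.0e-05). Snai1 stood at 60.6, 34.2 and 41.5 CPM against 30.3, 25.6 and 24.8 CPM, without overlap, but did not pass (0.76 ± 0.26, adjusted p 0.079). It passed with DESeq2, in the fits of 20 and 21 samples and with the sample number as a block. It also passed without sample 1 (0.50, adjusted p 1.6e-04) or sample 2 (0.93, adjusted p 0.0059) labelled TCF3. Zeb2 differed by 0.76 (adjusted p 3.8e-05). In Snai1, Snai2, Zeb1 and Zeb2 sample 1 was the highest of the libraries labelled TCF3.

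Of 25 epithelial genes, 24 were tested, 1 was higher and 16 were lower, with a median of -0.23. In a fit without the genes of chromosomes 8 and 11, described below, 12 of 19 members were lower and 1 higher, with a median of -0.18. Cdh1, the epithelial cadherin, stood at 706, 767 and 720 CPM against 1048, 1041 and 1081 CPM (-0.53 ± 0.04, adjusted p 2.6e-10). In the TCF4 dimer libraries Cdh1 was not past the test against the parental 1019 CPM (0.04, adjusted p 0.47), while the uninduced monomer line was at 768 CPM. Epcam differed by -0.38, the splicing regulator Esrp1 by -0.65 and the vesicle gene Rab25 by -1.15. Cdh3, the placental cadherin, was lower in the libraries labelled TCF3 by -0.63 but above its parental 65.6 CPM in both sets. The desmosome gene Dsp was the member that was higher (0.34, adjusted p 9.2e-05), and the simple-epithelium keratin Krt8 did not pass (0.06, adjusted p 0.48). Without sample 1 labelled TCF3, 3 members were higher.

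Genes of the common lineage of blood and endothelium were higher in the libraries labelled TCF3. Of 20, 16 were tested, 14 were higher (7 of them 2-fold) and 0 were lower, with a median of 0.91 (0 lower also at an unadjusted edgeR p under 0.05 and with DESeq2). Kdr, the VEGF receptor that marks this lineage, stood at 17.0, 13.0 and 16.2 CPM against 6.61, 5.90 and 5.05 CPM, and at 2.17 CPM in the parental line (1.41 ± 0.13, adjusted p 8.1e-09). Cd34 stood at 152, 112 and 134 CPM against 63.3, 59.5 and 53.3 CPM, and at 5.13 CPM in the parental line (1.18 ± 0.12, adjusted p 1.9e-04). Both genes were thus raised in both sets, further in the libraries labelled TCF3. Runx1, the blood factor, had a different pattern, at 5.12, 6.53 and 6.42 CPM against 1.10, 1.11 and 0.85 CPM with 3.44 CPM in the parental and 10.9 CPM in the uninduced monomer line (2.57 ± 0.22, adjusted p 1.2e-09). Sox18 differed by 1.55, Cdh5, the endothelial cadherin, by 1.26 and Etv2, which starts the lineage, by 0.83. Tal1 (0.42, adjusted p 0.052) and Tek (0.41, adjusted p 0.054) did not pass. Tal1 passed without sample 2 labelled TCF3 (0.58, adjusted p 0.0069) or sample 3 of the TCF4 dimer (0.51, adjusted p 0.043), and Tek without sample 2 of the TCF4 dimer (0.52, adjusted p 0.0355).

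Of 20 cardiac and lateral mesoderm genes, 11 were tested, 5 were higher (45.5%) and 1 was lower (9.09%), with a median of 0.60. The shares over all tested genes were 21.7% and 19.6%. Without a filter on low counts 8 cardiac genes were higher, and 3 when all 21 samples shared 1 fit. Isl1, a factor of cardiac progenitors, stood at 9.75, 4.50 and 5.37 CPM against 2.04, 1.80 and 0.97 CPM (2.08 ± 0.36, adjusted p 0.0012), and at 0.53 CPM in the parental line. Hand1 (7.19, 2.56 and 3.66 CPM against 3.54, 2.22 and 2.19 CPM) and Hand2 did not pass (adjusted p 0.15 and 0.16), though Hand1 did without sample 2 labelled TCF3 (1.04, adjusted p 0.0053). The contractile gene Actc1, the 1 member that was lower, was at 0.62 to 0.99 CPM against 1.62 to 2.12 CPM (-1.16, adjusted p 0.0025). It was over the minimum of the filter in every library of the TCF4 dimer set only. Of the 9 members over it in both sets, 5 were higher and 0 lower. Tbx3, the largest rise of the cardiac list at 2.31, also counts in the naive list, and Bmp4 in the BMP list. Without sample 1 labelled TCF3 the median of the 11 was 0.34 and 4 were higher.

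Of 26 helix-loop-helix genes, the partners and competitors of TWIST1 and the E-proteins, 19 were tested. Among those 6 were higher (31.6%) and 3 lower (15.8%), against 21.7% and 19.6% of all tested genes, with a median of 0.43. With each library left out in turn, 4 to 9 were higher, and without sample 1 labelled TCF3 the median was 0.25. The 4 Id genes were far above the parental line in both sets. Id1 stood at 402, 270 and 307 CPM against 270, 241 and 216 CPM, with 31.5 CPM in the parental line, and did not pass between the sets (0.43 ± 0.19, adjusted p 0.15). Id2 did not pass either (0.48, adjusted p 0.13), whereas Id3 (0.76, adjusted p 0.028) and Id4 (0.98, adjusted p 0.041) did. Bhlhe22, a neural gene, stood at 21.9, 12.1 and 15.0 CPM against 5.66, 7.44 and 4.50 CPM, with 0.77 CPM in the parental line (1.51 ± 0.26, adjusted p 0.0025). Without sample 1 labelled TCF3, Id1 (0.26, adjusted p 0.041) and Id2 (0.28, adjusted p 0.0035) passed as well. Id3 and Id4 lost their calls without sample 3 labelled TCF3 (adjusted p 0.0604 and 0.0841), sample 2 (0.0885 and 0.106) or sample 3 (0.0758 and 0.0955) of the TCF4 dimer. In a fit of 20 samples 10 members were higher.

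BMP ligands and feedback genes, among which the Id genes are well-known targets, were mostly higher. Dkk1, the largest rise of this list at 2.44, also counts in the endoderm and Wnt lists, and Id1, Id2 and Id3 count in the helix-loop-helix list. Of 21, 19 were tested, 11 were higher (8 of them 2-fold) and 1 was lower, with a median of 0.61. The ligands Bmp2, Bmp4 and Bmp7 differed by 1.94, 1.21 and 1.04. Bmp7 stood at 48.6, 35.3 and 35.7 CPM against 19.98, 19.9 and 18.6 CPM, and at 3.56 CPM in the parental line (adjusted p 1.1e-06). Bmp2 was at 2.23, 2.91 and 2.85 CPM against 0.79, 0.51 and 0.73 CPM, and at 1.98 CPM in the parental line. Smad6, an inhibitor that BMP signals induce, differed by 1.03 (adjusted p 0.019), and Smad7, the member that was lower, by -0.33. The call of Smad6 was lost without sample 2 (adjusted p 0.052) or sample 3 (0.081) of the TCF4 dimer, and without sample 1 labelled TCF3 2 members were lower.

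Primitive streak genes gave counts near or below those of all genes. Of 24, 13 were tested, 2 were higher (Aplnr by 1.21 and Lhx1 by 0.97) and 2 lower (Fgf8 by -1.26 and Eomes by -0.70), with a median of -0.02. The shares were 15.4% each, against 21.7% and 19.6% of all tested genes. In the fit of 20 samples and without a filter on low counts 4 were higher. T, the brachyury gene, stood at 1.57, 1.68 and 1.54 CPM against 1.34, 2.22 and 1.34 CPM, and Mixl1 at 2.56, 1.94 and 1.87 CPM against 1.73, 2.91 and 1.82 CPM. Both overlapped (log2 fold changes -0.00 ± 0.28 and 0.01 ± 0.25) and lay below the parental 26.1 and 17.6 CPM, as did the uninduced monomer line at 1.60 and 2.08 CPM. Eomes, at 9.59, 14.1 and 13.1 CPM against 18.9, 20.1 and 20.4 CPM, was at 133 CPM in the parental line.

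In the Nodal and Wnt lists the largest differences were those of secreted antagonists. Of 13 tested Nodal pathway genes, 6 were higher (46.2%) and 2 lower (15.4%), against 21.7% and 19.6% of all tested genes. The feedback antagonists Lefty1 and Lefty2 differed by 1.17 and 1.21 (adjusted p 5.8e-11 and 3.4e-09), Lefty1 standing at 59.0, 69.8 and 71.0 CPM against 27.5, 29.2 and 32.0 CPM. Nodal itself, at 10.6, 15.7 and 17.2 CPM against 15.0, 17.2 and 22.1 CPM, did not pass (-0.34, adjusted p 0.23). Of 17 tested Wnt targets and antagonists, 10 were higher (58.8%) and 3 lower (17.6%), the latter near the share over all genes. Notum stood at 17.4, 13.9 and 16.7 CPM against 2.60, 2.05 and 2.43 CPM and Dkk1, an antagonist of the Wnt co-receptor, at 20.6, 13.3 and 17.1 CPM against 2.52, 3.59 and 3.29 CPM (2.44 ± 0.17, adjusted p 1.9e-10). Axin2, the widely used Wnt target, did not pass (-0.06, adjusted p 0.65). Of the Wnt genes, 5 lie on chromosome 11, and of the 10 tested outside chromosomes 8 and 11, 6 were higher and 2 lower. Of 20 FGF genes, 11 were higher (55%) and 5 lower (25%), the latter share not far from that over all genes. The receptors Fgfr4 (1.19) and Fgfr3 (1.03) were higher and the ligands Fgf5 and Fgf8, as given above, lower.

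Other lineages gave smaller or mixed counts. Over all tested genes 21.7% were higher and 19.6% lower. Of 10 tested neural genes 4 were higher (40%) and 4 lower (40%), led by Irx3 (1.66). Of 13 tested Notch genes 3 were higher (23.1%) and 2 lower (15.4%), led by Heyl (1.78), which is near the shares over all genes. Of 9 tested trophoblast genes 4 were higher (44.4%) and 2 lower (22.2%). Plet1, at 4.71, 4.77 and 3.82 CPM against 1.10, 1.45 and 1.22 CPM, led them (1.82), and the defining genes Elf5, Tpbpa and Prl3d1 had 0 counts in the 6 libraries. Of 11 tested germ cell genes 3 were higher (27.3%) and 2 lower (18.2%), also near those shares. Without sample 1 or 2 labelled TCF3 or sample 3 of the TCF4 dimer, 1 germ cell gene was lower. Of 9 tested fibroblast and feeder cell genes 4 were higher (44.4%) and 3 lower (33.3%). Summed over all 15 members of that list, tested or not, levels were 203 to 227 CPM and 204 to 220 CPM. Of 32 Hox genes only 3 reached the filter, 2 of them higher, with Hoxb9 among these, and Hoxd13 lower. Both higher ones were over the minimum in every library only of the set labelled TCF3, so their number is no support for a direction. Hoxb9 lost its call without sample 1 or 3 labelled TCF3 (adjusted p 0.067 and 0.073) or sample 2 or 3 of the TCF4 dimer (0.073 and 0.062). Of 24 tested integrins and linkers 9 were higher (37.5%) and 2 lower (8.33%), with a median of 0.07.

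**Figure D4:**
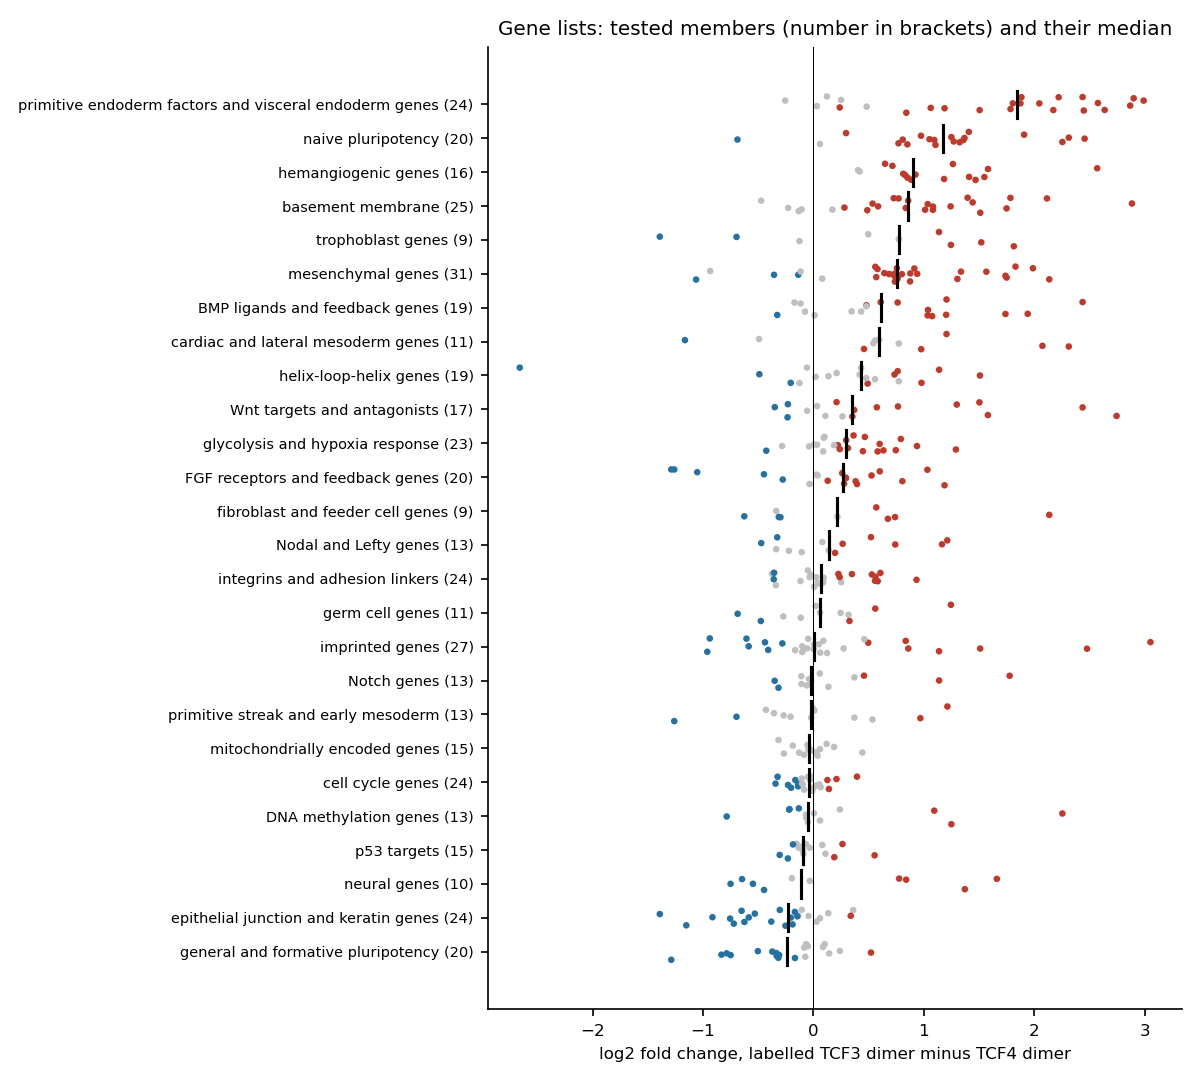
Log2 fold changes (libraries labelled TCF3 dimer minus TCF4 dimer) of the tested members of each list with at least 9 of them, in red where higher past the test, blue where lower and grey otherwise, with the list's median as a black line. Endoderm (median 1.84) and naive pluripotency (1.18) lie farthest to the right, and formative pluripotency (-0.24) and epithelial genes (-0.23) to the left of 0.

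Of 27 tested imprinted genes 7 were higher and 7 lower (25.9% each, near the 21.7% and 19.6% of all tested genes), with a median of 0.00. H19, a maternally expressed growth-limiting RNA, stood at 32.4, 19.4 and 27.2 CPM against 2.91, 2.31 and 4.01 CPM (3.05 ± 0.25, adjusted p 1.7e-05), while the parental and uninduced monomer lines were at 0.88 and 0.85 CPM. Its paternally expressed neighbour Igf2 stood at 26.4, 22.9 and 26.6 CPM against 25.6, 24.8 and 30.4 CPM and did not pass (-0.10, adjusted p 0.39). Mest differed by 1.51 and Peg10 by 1.14. Grb10 stood at 135, 135 and 136 CPM against 268, 271 and 252 CPM, and at 302 CPM in the parental line (-0.96 ± 0.05, adjusted p 1.9e-14), and Nnat differed by -0.94. Among 13 DNA methylation genes, 3 were higher (23.1%), including Tet2 (1.25) and Zfp57 (1.09), and 4 were lower (30.8%), including Dnmt3b and Dnmt1 (-0.13). The call of Dnmt1 was lost without sample 1 labelled TCF3 (adjusted p 0.059).

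Glycolysis and hypoxia genes were higher more often than lower, 14 against 1 of 23 tested, with a median of 0.30. The growth factor gene Vegfa stood at 10.5, 12.1 and 13.9 CPM against 4.17, 4.62 and 5.90 CPM (1.29 ± 0.15, adjusted p 2.0e-07), Pdk1 differed by 0.79 and the glucose transporter Slc2a3 by 0.75, whereas the transporter Slc2a1 was lower (-0.43, adjusted p 0.016). In the TCF4 dimer libraries Pdk1 (-0.72) and Slc2a3 (-0.89) were below the parental line, and in the libraries labelled TCF3 they did not differ from it past the test (adjusted p 0.66 and 0.34). Of 24 cell cycle genes 4 were higher (16.7%, against 21.7% of all tested genes) and 7 lower (29.2%, against 19.6%), all by less than 0.40. In the fit of all 21 samples 1 was higher and 1 lower, and without sample 3 of the TCF4 dimer 2 were higher. Of 15 p53 targets 3 were higher and 3 lower, led by Cdkn1a (0.55), which at 20% each is near the shares over all genes. With DESeq2, in the fit of 21 samples, without sample 1 labelled TCF3 and without sample 2 or 3 of the TCF4 dimer, 1 p53 target was lower. Of 15 mitochondrially encoded genes 0 passed with edgeR (0 at an unadjusted p under 0.05, 0 with DESeq2), whereas 1 was higher without sample 1 labelled TCF3 and 1 lower without sample 1 of the TCF4 dimer. With the sample number as a block, 1 was higher and 3 lower, and in the fit of 20 samples 1 was lower.

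Whole chromosomes also differed between the sets. Across 749 genes of chromosome 11 with a mean of at least 10 CPM, the median log2 difference between the libraries labelled TCF3 and the TCF4 dimer libraries was 0.198 above the median of the genome. From the parental line, the libraries labelled TCF3 lay at 0.184, 0.175 and 0.180 and the TCF4 dimer libraries at -0.02, -0.02 and -0.01. On this chromosome 47.6% of the 1081 tested genes were higher in the libraries labelled TCF3, against 19.4% of the tested genes elsewhere. Across 532 genes of chromosome 8 the median difference was -0.144, and 42.4% of the 728 tested genes were lower, against 18.3% elsewhere. Here the libraries labelled TCF3 lay at -0.08, -0.09 and -0.08 and the TCF4 dimer libraries at 0.06, 0.05 and 0.09. Both monomer lines also lay below 0, at -0.107 to -0.0787 without and -0.116 to -0.0965 with doxycycline. The homodimer line (0.0501 to 0.0647) and the libraries labelled TCF12 dimer (0.0598 to 0.163) lay above it. Chromosome 1 (0.083) and chromosome 14 (0.054) were next. On chromosome 1 the libraries labelled TCF3 lay at 0.0725 to 0.0898 and the uninduced monomer line at 0.0225 to 0.081. On chromosome 14 they lay at 0.0526 to 0.0701 and 0.0745 to 0.0908. Of the genes named, Notum, Sparc, Hand1, Lhx1, Axin2, Hoxb9 and Grb10 lie on chromosome 11, and Col4a1, Col4a2, Cdh1, Cdh3, Cdh5, Hand2, Irx3 and Mmp2 on chromosome 8. DNA was not measured, so copy number and other sources of these shifts cannot be told apart.

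**Figure D5:**
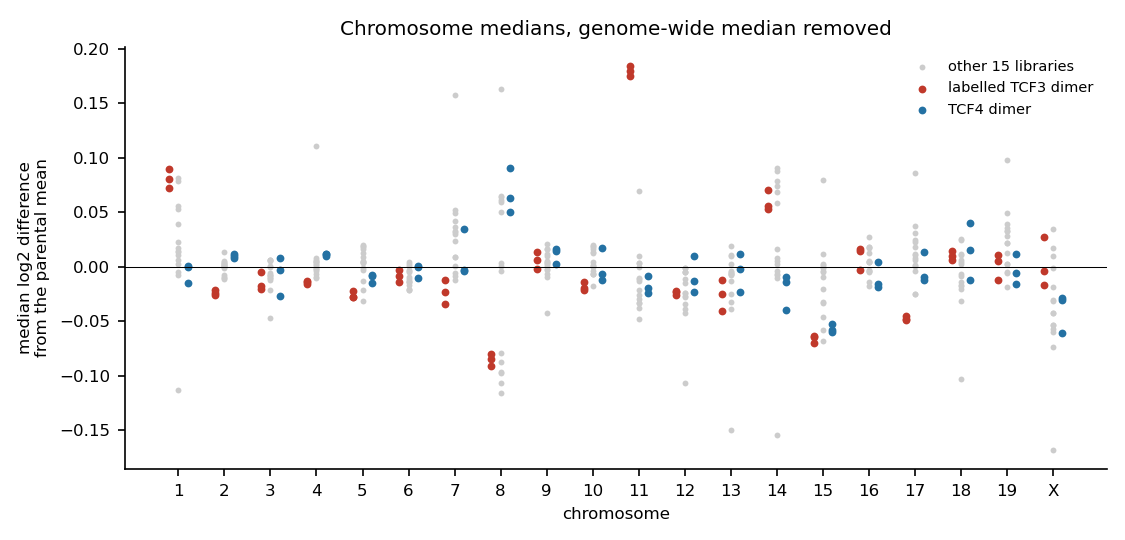
Median log2 difference from the parental mean (vertical axis, genome-wide median removed) of the genes of each chromosome, 1 point per library, in red for the libraries labelled TCF3 dimer, blue for the TCF4 dimer and grey for the other 15. The 3 red points on chromosome 11 (0.175 to 0.184) lie above all other libraries, and on chromosome 8 the red points lie below 0 and the blue points above it.

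The genes of the Y chromosome were looked at after their values were seen. Ddx3y stood at 29.8, 26.0 and 27.4 CPM against 7.0, 7.01 and 5.84 CPM (2.08 ± 0.11, adjusted p 9.1e-14), with 6.66 CPM in the parental and 2.07 CPM in the uninduced monomer line. Eif2s3y (1.21) and Uty (1.65) differed the same way, and Kdm5d, at up to 0.43 CPM in the 6 libraries, was too low to be tested. Xist, the RNA of the inactive X chromosome, was at 1.98 to 2.20 CPM against 0.26 to 0.79 CPM (1.99 ± 0.33, adjusted p 3.5e-05). All 7 groups thus hold RNA of the Y chromosome, at levels that differ between lines.

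Within the libraries labelled TCF3, sample 1 differed from samples 2 and 3 in several of these groups, which was noticed after the values were seen. It was the lowest of the 3 in 20 of 20 naive genes, 17 of 24 endoderm genes and 19 of 25 basement membrane genes, against 34.6% of all tested genes. It was the highest in 21 of 31 mesenchymal, 14 of 19 BMP and 9 of 11 cardiac genes, against 36.3% of all tested genes. Sample 2 was the lowest in 24 of 31 mesenchymal, 16 of 19 BMP and 7 of 11 cardiac genes, against 34.2% of all tested genes. Of the TCF4 dimer libraries, sample 3 was the highest in 15 of 20 naive and 18 of 25 basement membrane genes, against 34.5% of all tested genes. With sample 1 labelled TCF3 left out, 20 endoderm genes, 18 naive genes, 20 basement membrane genes and 23 mesenchymal genes were higher, against 19, 18, 20 and 23 with it. The count of BMP genes was then 13 instead of 11 and that of cardiac genes 4 instead of 5.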

How the data were processed

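RNA was sequenced from 21 libraries in 7 groups of 3, and the 3 libraries labelled TCF3 dimer were compared with the 3 of the TCF4 dimer. The authors deposited raw read counts per gene symbol, 1 table of 48321 symbols per library. Per the submitters' processing notes, FastQC, TopHat2 and HTSeq were used with mm10 (GRCm38). Their versions, the gene annotation and the strand setting are not given in the sources used here, so reads of overlapping or antisense genes may not be told apart. In 18 of the 21 tables, 25 symbols had been turned into dates, and symbols were taken by their position from a table without them.

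Genes were filtered with edgeR 4.0.16 (limma 3.58.1, R 4.3.3; minimum count 10, total 15), scaled by TMM and tested with the quasi-likelihood F test with robust dispersion on the 6 libraries. Benjamini-Hochberg adjustment ran over all tested genes, with a threshold of 0.05. Standard errors are the log2 fold change divided by the root of F. Differences from the parental line came from a fit of 9 samples. CPM, counts relative to library size, was computed here with TMM factors over all 21 libraries, with 0.5 CPM added for log2 medians. Chromosomes came from GENCODE M21 and promoter windows from RefSeq (GRCm38.p6). Chromosome medians used genes averaging 10 CPM or more. The fit was tested on simulated data.

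Named genes were the 12 largest changes in each direction with at least 5 CPM and no overlap, and up to 8 members of each of 27 lists by size of change, with members a list is known for. The lists and named genes were chosen with earlier results of these data known. Some genes are not reported here. Alternatives were DESeq2 1.42.0, other scaling, filters, samples in the fit, thinned counts, genes outside chromosomes 8 and 11, a replicate block and leaving out each library.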

Additional observations from a re-analysis of the deposited data

How the results depend on the processing

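Between the libraries labelled TCF3 and the TCF4 dimer, 5694 genes passed, and the count fell to 2805 (1681 higher, 1124 lower) when all 21 samples shared 1 fit, in which the biological coefficient of variation was 0.12 instead of 0.0446. It was 5823 when only sample 1 labelled TCF12 dimer was kept out of that fit, leaving 20 samples, and 4345 with DESeq2. Without a filter on low counts, 214 instead of 134 genes were 2-fold lower. With a minimum of 1 CPM the shift was -0.146 on chromosome 8 and 0.185 on chromosome 11. With each library left out in turn, 4787 to 5207 genes passed (2529 to 2724 higher, 2258 to 2483 lower), 696 to 763 at 2-fold (534 to 586 higher, 130 to 178 lower), and the shifts ran from -0.157 to -0.136 and from 0.186 to 0.201.

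Same-numbered samples correlated at 0.0603, -0.00708 and 0.0194 in their deviations from the group means, so the numbers were not taken to pair the samples, and not every sample correlated best with its own number. With the number as a replicate block, 5825 genes passed (3068 higher, 2757 lower), 677 of them at 2-fold, and 11 instead of 6 helix-loop-helix genes were higher, and 1 mitochondrially encoded gene was higher and 3 lower instead of 0.

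In the fit of all 21 samples, 10 instead of 16 epithelial genes were lower, and Dsp, Timp3, Dnmt1, Hoxb9, Id3 and Mmp2 lost their calls. For the genes named, no fold change reversed a call in the alternatives run. Other members of the lists were followed only as counts. Depth limits low genes, and those that did not reach about 0.844 CPM in at least 3 of the 6 libraries were not tested. A tested gene may lie below that level in 1 whole set.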
